A study of Mus musculus with 8 samples.

Results

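The 10 genes described here are 7 matrix metalloproteases, Mmp2, Mmp3, Mmp9, Mmp10, Mmp13, Mmp14 and Mmp15, and 3 tissue inhibitors of metalloproteases, Timp1, Timp2 and Timp3. They were found by symbol among 55487 genes counted by RNA-seq in cultured LLC (Lewis lung carcinoma) cells, a mouse lung tumor line. The comparison was between 4 wild-type libraries and 4 libraries of ΔAgo2 cells, which lack Argonaute 2, the RNA interference protein that binds microRNAs and can cut their targets. ΔAgo2 cells were made by infection with a lentivirus carrying Cas9 and a guide against Ago2, followed by puromycin selection and sorting of single cells into clones. The sources used here do not say how many clones entered the libraries, so genotype and clone cannot be told apart. Nor do they say that wild-type cells went through infection, selection or cloning. All 8 libraries came from untreated cells in serum-containing medium and carry the same batch label, and replicates 1 to 4 of each genotype are labelled biological. Nothing states that they came from separate cultures, so p-values measure the spread between these libraries.

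Matrix metalloproteases are zinc endopeptidases that cut collagens, laminins, proteoglycans and many surface and secreted proteins. Most are secreted as inactive proenzymes and become active once the prodomain is removed. Members of the membrane-type class are held at the cell surface. Timps bind the active site and block it, and Timp2 also serves as the bridge by which Mmp14 captures and activates proMmp2 at the cell surface. In tumors, these enzymes open the matrix to migrating cells and release bound growth factors. They are controlled at several levels, of which RNA abundance, the level measured here, is the first.

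Mmp13, Mmp3 and Mmp10 lie on the plus strand of chromosome 9 within a cluster of 10 Mmp genes that spans 427.1 kb of GRCm38 (the same build as mm10), from 7272514 to 7699585. The sequence before the start of these 3 genes is shown. Among the 8 members that passed the filter on low counts, they had the widest spread of log2 CPM between libraries. The sequence of Mmp14, which had the smallest spread of the 8 in each genotype, is shown beside them. Each is the 130 bases upstream of the RefSeq start in GRCm38.p6, on the plus strand. Capitals mark TGAGTCA or its reverse complement TGACTCA, the core to which AP-1 (Fos and Jun dimers) binds.
Mmp3, chr9:7445692-7445821: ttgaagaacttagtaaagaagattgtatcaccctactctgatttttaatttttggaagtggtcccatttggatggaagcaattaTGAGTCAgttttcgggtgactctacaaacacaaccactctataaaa
Mmp10, chr9:7502212-7502341: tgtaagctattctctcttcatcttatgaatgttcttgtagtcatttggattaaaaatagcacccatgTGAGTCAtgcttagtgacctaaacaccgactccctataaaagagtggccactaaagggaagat
Mmp13, chr9:7272384-7272513: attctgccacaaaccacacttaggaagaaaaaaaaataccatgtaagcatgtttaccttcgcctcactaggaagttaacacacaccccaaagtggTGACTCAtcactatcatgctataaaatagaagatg
Mmp14, chr14:54431468-54431597: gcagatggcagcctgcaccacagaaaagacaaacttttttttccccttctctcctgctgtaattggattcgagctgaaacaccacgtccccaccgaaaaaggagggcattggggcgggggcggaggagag
The AP-1 core began at position -46 relative to the start in Mmp3, at -63 in Mmp10 and at -35 in Mmp13. It was searched for on both strands of the 250 bases upstream of each start, and 4.46% of 32851 RefSeq promoters held it. Promoters were found for 8 of the 10 members, all but Mmp2 and Mmp9, and the core was in these 3 and not in Mmp14, Mmp15, Timp1, Timp2 or Timp3. The TATA box TATAAA, searched for on the gene's own strand, followed it at -7 in Mmp3, -29 in Mmp10 and -16 in Mmp13, was in none of the other 5 and was held by 7.59% of promoters. The Ets factor core AGGAAG, on either strand, was in Mmp3, Mmp13, Mmp14, Timp1 and Timp3, against 29.5% of promoters. The matches did not overlap one another, and a match of letters does not show binding. Outside the members, the AP-1 core was found upstream of the cluster genes Mmp1a, Mmp1b, Mmp12 and Mmp7, but not of Mmp8, Mmp20 or Mmp27. A further promoter of Mmp12 and of Mmp7 lacked it. Mmp7 had no counts in any library. Whether the core is linked to the spread between libraries was not tested.

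For the Timps, the sequences shown are microRNAs known to act on Timp3, since the deleted protein works through microRNAs. Their mature RefSeq sequences follow, with the seed (bases 2 to 8) in capitals.
mmu-miR-21a-5p: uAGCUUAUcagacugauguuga
mmu-miR-221-3p: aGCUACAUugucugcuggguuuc
mmu-miR-222-3p: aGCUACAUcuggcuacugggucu
miR-221-3p and miR-222-3p share the seed GCUACAU, and miR-21a-5p has the seed AGCUUAU. The 3′ UTR of Timp3, 3604 bases in the GENCODE transcript used, held 1 match to each seed, in capitals.
Timp3, miR-21a-5p match at base 2325 of the UTR: ttgagctttcaATAAGCTatag
Timp3, miR-221-3p and miR-222-3p match at base 2383: taaaatcatttATGTAGCtgag
Timp2, miR-21a-5p match at base 1353: cgtcttaaaaaATAAGCTgtcc
Of the 10 members, only Timp3 and Timp2 held a match to any of the 3 microRNAs, and none held a match to miR-27b-3p, which was also searched. ATAAGCT was in 7.18% and ATGTAGC in 9.45% of 21010 mouse 3′ UTRs, so such matches are common. MicroRNAs were not measured in these libraries.

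Libraries held 40740643 to 68530912 counts in wild-type and 39628101 to 57595675 in ΔAgo2 cells. Values per library are CPM, counts scaled to the library total after adjustment with TMM factors. Wild-type replicate 4 stood apart, with a median Spearman correlation with its own group of 0.864, while those of the remaining 7 libraries were at least 0.948. Across genes, its deviation followed GC content (rho = 0.722, over genes that share a library and are not independent replicates). The same measure was -0.427, -0.509 and -0.435 in wild-type replicates 1 to 3, whose reference includes replicate 4, and between -0.157 and 0.336 in ΔAgo2 libraries. ΔAgo2 replicates 1 and 2 were the closest pair (chi-square of 22.8 per gene, against 89.0 to 126 for the other ΔAgo2 pairs), but differed by more than the 1 that counting error gives and were counted separately. Ago2 mRNA itself ran from 119 to 520 CPM in wild-type and from 293 to 408 CPM in ΔAgo2 cells (adjusted p = 0.908, edgeR quasi-likelihood F test, Benjamini-Hochberg), so its level does not check the labels. Markers of lung epithelium (Nkx2-1, Sftpc, Sftpb and Scgb1a1) did not exceed 3 counts in any library. In the epithelial list Epcam did not exceed 3 counts either, but Krt8 ran from 38.2 to 654 CPM and Krt18 from 75.2 to 601 CPM, both highest in wild-type replicate 4, so that the list summed to 114 to 1259 CPM in wild-type and 313 to 509 CPM in ΔAgo2 cells. The mesenchymal and fibroblast list summed to 3102 to 6110 CPM in wild-type and 4290 to 5540 CPM in ΔAgo2 cells. Nearly all of this was Vim, at 3072 to 6076 CPM and 4210 to 5478 CPM. Pdgfra reached 85.7 CPM and Cdh2 26.2 CPM. Dcn reached 7.81 CPM, Pdgfrb 6.86 CPM, Col1a1 3.01 CPM and Col1a2 1.12 CPM, and Thy1 did not exceed 3 counts in any library. Leukocyte and macrophage markers summed to 5.88 to 39.0 CPM in wild-type and 5.43 to 17.2 CPM in ΔAgo2 cells, mostly Cd68, and the defining Ptprc, Adgre1 and Itgam did not exceed 3 counts in any.

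Of the 10 members, 8 passed the filter on low counts and were tested, and none reached an adjusted p of 0.05 (edgeR quasi-likelihood F test, Benjamini-Hochberg, two-sided), against 42 of 14228 genes tested, or 0.295%. At an unadjusted p under 0.05 there was 1 member, Timp3, against 1045 of all genes tested. DESeq2 called the same member, among 399 of 17926 genes, or 2.23%. For none of the 8 did all values of one genotype lie above all of the other, as they did for 6.07% of tested genes. The median log2 fold change, ΔAgo2 over wild-type, was -0.36 over the 8 members and -0.11 over all tested genes. In bulk RNA, fewer cells that express a gene and less RNA per cell cannot be told apart.

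**Figure D1:**
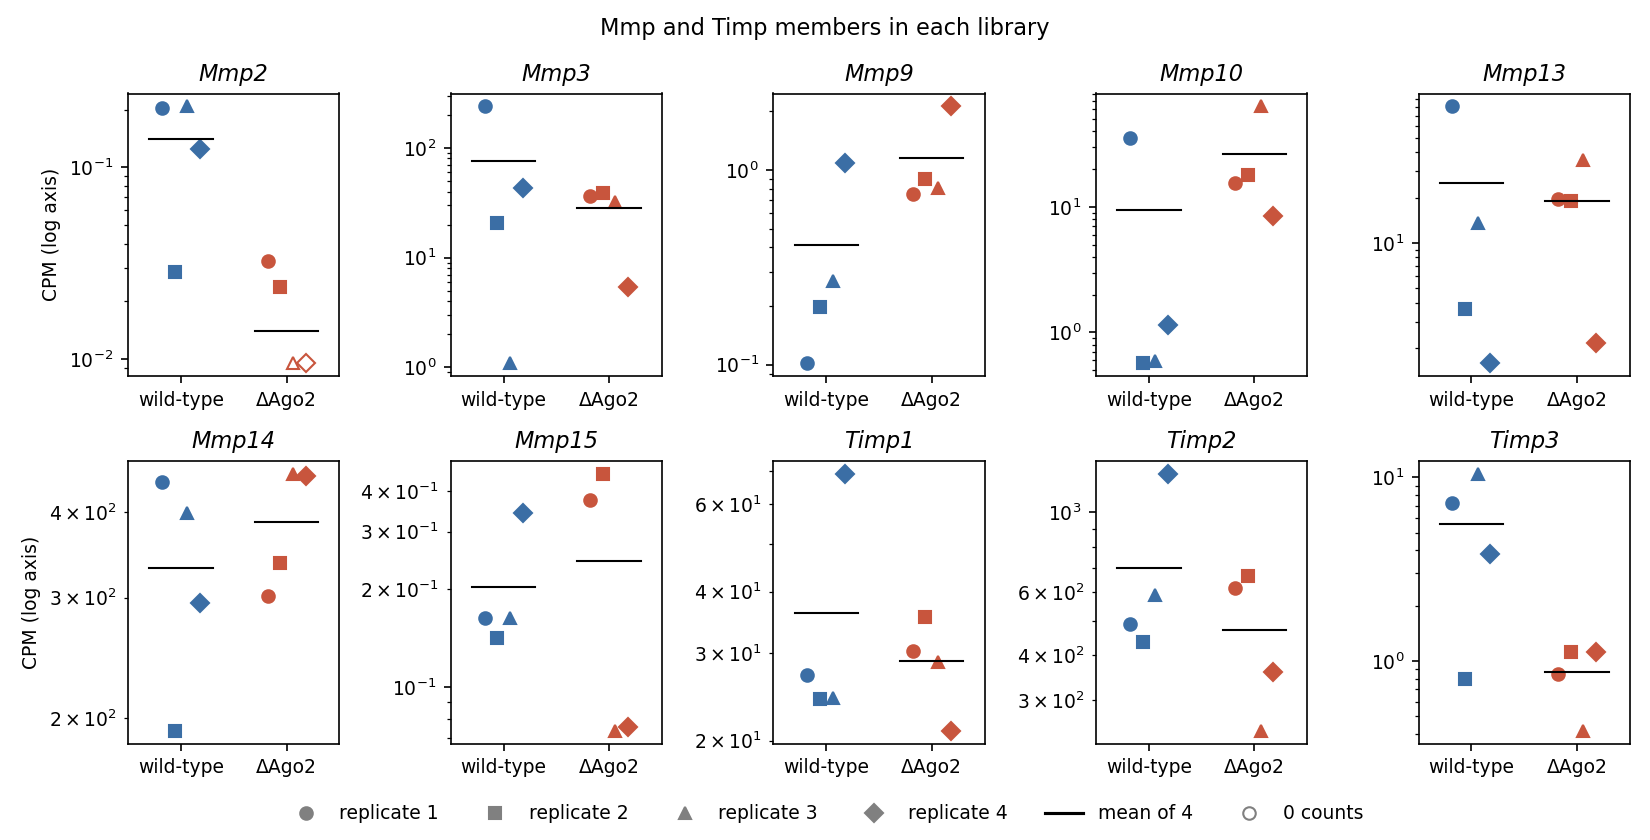
CPM of each member in each library (log axis, own scale per gene), with the 4 wild-type libraries in blue and the 4 ΔAgo2 libraries in red; marker shape gives the replicate number, the line the mean, and open markers libraries with 0 counts. In Timp3, wild-type replicate 2 (0.793 CPM) lies among the ΔAgo2 libraries while the other 3 lie above them, and in Mmp10 wild-type replicate 1 (35.6 CPM) lies apart from the rest of its group.

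Levels between genes were compared per length, as TPM. Timp2 was the most abundant member in both genotypes, with a median of 477.8 TPM in wild-type and 460.9 TPM in ΔAgo2 cells. Mmp14 came next, at a median of 177.4 and 231.8 TPM. In wild-type cells, the range of Timp2 lay above that of Mmp14, and from Mmp14 down through Timp1 (100.6 TPM), Mmp3 (49.05), Mmp13 (11.36), Timp3 (1.90) and Mmp10 (1.38) each gene overlapped its neighbor in the order. Mmp9 (0.240) lay below Mmp10 but overlapped Timp3, and Mmp2 (0.135) and Mmp15 (0.10), the lowest, overlapped Mmp9. Mmp3 spanned 2.06 to 409.91 TPM in wild-type cells and so also reached the range of Timp2. In ΔAgo2 cells, Timp2 and Mmp14 overlapped and lay above Timp1 (119.5 TPM), which lay above Mmp3 (68.11). Mmp3, Mmp10 (35.8) and Mmp13 (26.59) overlapped in turn, with Mmp10 also reaching the range of Timp1. Mmp9 (0.865) lay below these 3, Timp3 (0.435) and Mmp15 (0.155) overlapped below it, and Mmp2 (0.015) was lowest. The 7 Mmps summed to 348 ± 301.4 TPM (SD, n = 4) in wild-type and 367 ± 83.5 TPM (SD, n = 4) in ΔAgo2 cells, and the 3 Timps to 637 ± 184 and 556 ± 220 TPM, differences smaller than the spread between libraries. What made up the Mmp sum differed between libraries. Mmp14 supplied 28.8% of it in wild-type replicate 1 and 91.5% in replicate 3, and 52.9% to 89.1% in ΔAgo2 cells. Mmp3, Mmp10 and Mmp13 together supplied 71.2% in wild-type replicate 1 and 8.24% to 33.5% in the other wild-type libraries. The ratio of summed Timp to summed Mmp TPM was 0.609, 3.06, 2.47 and 5.41 in wild-type replicates 1 to 4 and 2.20, 2.19, 0.665 and 1.37 in ΔAgo2 replicates 1 to 4. The genotypes overlapped in this ratio, and it spanned a wider range in wild-type cells.

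**Figure D2:**
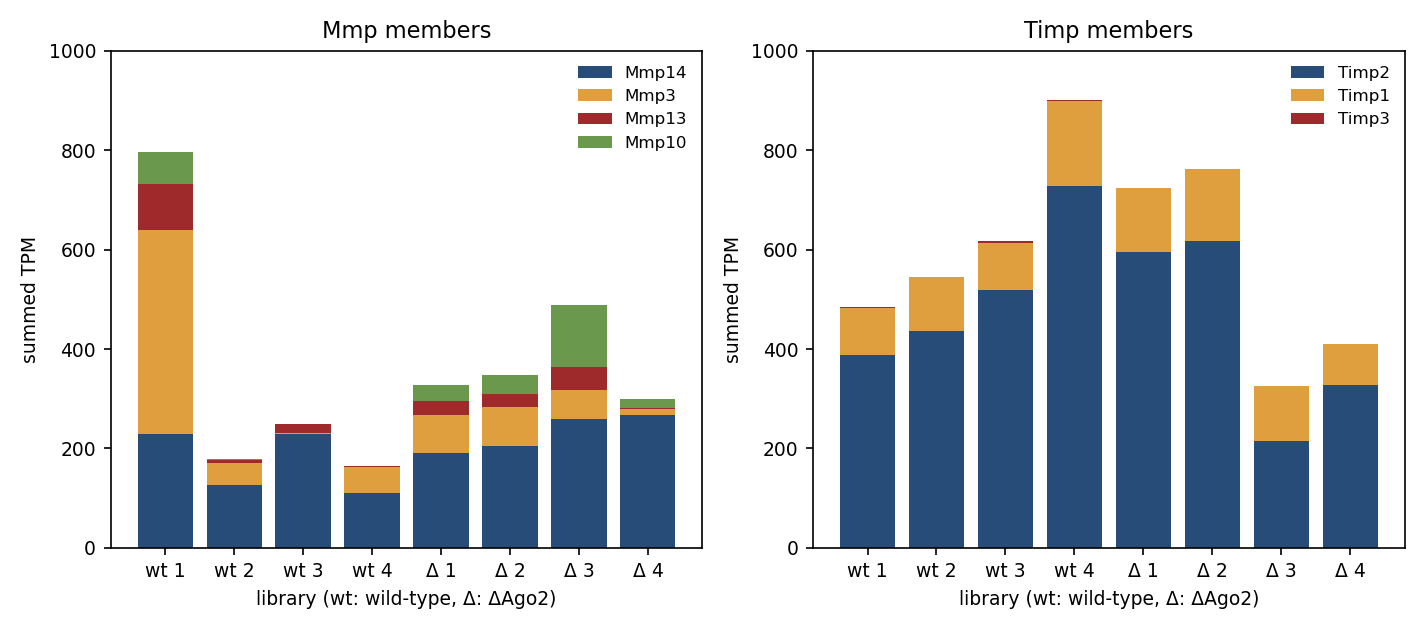
Stacked TPM of the Mmp members (left) and the Timp members (right) in each library, with Mmp2, Mmp9 and Mmp15 left out because their summed TPM is too small to draw. Wild-type replicate 1 reaches a Mmp sum of 796 TPM, most of it Mmp3, whereas Mmp14 is the largest share in the other 7 libraries, and Timp2 is the largest share of the Timp sum in all 8.

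Among the gelatinases, which cut denatured collagen and the type IV collagen of basement membranes, Mmp2 was near the limit of detection. Mmp2 (ENSMUSG00000031740.8, chromosome 8, 92827291 to 92853420) was counted 10, 2, 14 and 4 times in wild-type replicates 1 to 4 and 2, 1, 0 and 0 times in ΔAgo2 replicates 1 to 4. It did not pass the filter, and no ΔAgo2 library exceeded 3 counts. Over the summed counts, wild-type exceeded ΔAgo2 by a ratio of 8.99 (95% exact binomial interval 2.80 to 46.0, which covers counting error only). In a fit without the filter, Mmp2 had a log2 fold change of -3.02 and an adjusted p of 0.326 (edgeR quasi-likelihood F test, Benjamini-Hochberg). Mmp9 (ENSMUSG00000017737.2, chromosome 2, 164940780 to 164955850) was low as well, at 0.102, 0.198, 0.267 and 1.09 CPM in wild-type replicates 1 to 4 and 0.749, 0.903, 0.809 and 2.12 CPM in ΔAgo2 replicates 1 to 4. The ΔAgo2 libraries lay above 3 of the wild-type libraries, and wild-type replicate 4 lay within their range. These values rest on 5 to 35 counts in wild-type and 33 to 112 counts in ΔAgo2 libraries. This gave a log2 fold change of 1.52 (standard error 0.72, 95% interval -0.085 to 3.12) with an adjusted p of 0.700 (edgeR quasi-likelihood F test, Benjamini-Hochberg). Leave-one-out values ran from 1.03, without ΔAgo2 replicate 4, to 2.57, without wild-type replicate 4. The adjusted p of these fits was 0.979 and 0.0962 from the same edgeR test. The fit without wild-type replicate 4 called 113 of 14541 genes, against 42 of 14228 in the main fit. The 3 genes whose log2 CPM across the 8 libraries, centred on its mean, came closest to Mmp9 were Tmem88, Rftn1 and Neurl3, with root mean square differences of 0.39, 0.43 and 0.50 against a median of 1.35 over all genes.

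The stromelysins Mmp3 and Mmp10 cut proteoglycans, laminin and fibronectin and can activate other proMmps. Mmp3 (ENSMUSG00000043613.8, chromosome 9, 7445822 to 7455975) was at 239, 20.8, 1.08 and 43.0 CPM in wild-type replicates 1 to 4 and 36.3, 38.9, 32.1 and 5.37 CPM in ΔAgo2 replicates 1 to 4. The wild-type libraries enclosed the whole ΔAgo2 range and spanned 220.4-fold from lowest to highest, against 7.23-fold in ΔAgo2 cells. On log2(CPM + 0.1), Mmp3 had an SD of 3.19 in wild-type cells, and 1 of the 14228 tested genes had a higher one. The log2 fold change of -1.43 (standard error 1.13, adjusted p = 0.775, edgeR quasi-likelihood F test, Benjamini-Hochberg) rested on wild-type replicate 1, without which it was 0.39. Mmp10 (ENSMUSG00000047562.3, chromosome 9, 7502352 to 7510240) was at 35.6, 0.567, 0.594 and 1.15 CPM in wild-type replicates 1 to 4 and 15.5, 17.9, 63.3 and 8.42 CPM in ΔAgo2 replicates 1 to 4. Thus 3 wild-type libraries lay below every ΔAgo2 library, and wild-type replicate 1 lay above 3 of the 4 ΔAgo2 libraries. Mmp10 had a log2 fold change of 1.47 (standard error 1.27, 95% interval -1.35 to 4.29) with an adjusted p of 0.787 (edgeR quasi-likelihood F test, Benjamini-Hochberg). Without wild-type replicate 1 it was 5.11 and the adjusted p 0.0670 from the same edgeR test, and without ΔAgo2 replicate 3 it was 0.56.

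The collagenase Mmp13 cuts fibrillar collagens. Mmp13 (ENSMUSG00000050578.10, chromosome 9, 7272514 to 7283331) was at 80.7, 3.66, 13.6 and 1.58 CPM in wild-type replicates 1 to 4 and 19.6, 18.8, 35.6 and 2.17 CPM in ΔAgo2 replicates 1 to 4. Again wild-type replicate 1 was the highest library, and the wild-type values enclosed all ΔAgo2 values. Mmp13 had a log2 fold change of -0.39 with a standard error of 1.09 (adjusted p = 0.940, edgeR quasi-likelihood F test, Benjamini-Hochberg), and 1.60 without wild-type replicate 1. Within ΔAgo2 cells, 12 of the 14228 tested genes had a higher SD of log2(CPM + 0.1) than the 1.74 of Mmp13. For comparison, the median SD over tested genes was 0.76 in wild-type and 0.23 in ΔAgo2 cells.

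The 6 tested Mmp genes of the chromosome 9 cluster, Mmp13, Mmp12, Mmp1b, Mmp3, Mmp1a and Mmp10, were in large part highest in the same library within each genotype. Wild-type replicate 1 was the highest wild-type library for 6 of 6, whereas it was so for 17.0% of all tested genes. ΔAgo2 replicate 3 was the highest ΔAgo2 library for 5 of 6, against 30.2% of all tested genes, and Mmp3 was the exception. Over all 8 libraries, Mmp13, Mmp12 and Mmp3 were highest in the former and Mmp1b, Mmp1a and Mmp10 in the latter. The 3 that are not members are macrophage elastase Mmp12, Mmp1a and Mmp1b. Mmp1a and Mmp1b are close paralogs of each other, so that reads may have been split between them. Mmp12 (7344381 to 7369499, plus strand) and Mmp1b (7368239 to 7388047, minus strand) overlap. As the strand setting of the counting is not given, reads of Mmp12 and Mmp1b may have been shared or dropped. Mmp12 reached 3.23 CPM in wild-type replicate 1 and at most 0.0567 CPM in the other wild-type libraries, and 0.190 to 1.42 CPM in ΔAgo2 cells. Mmp1a was counted 27, 9, 0 and 0 times in wild-type replicates 1 to 4 and 35, 26, 42 and 14 times in ΔAgo2 replicates 1 to 4. The genes are neighbors in the same libraries, so their shared order is 1 observation and not 6.

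**Figure D3:**
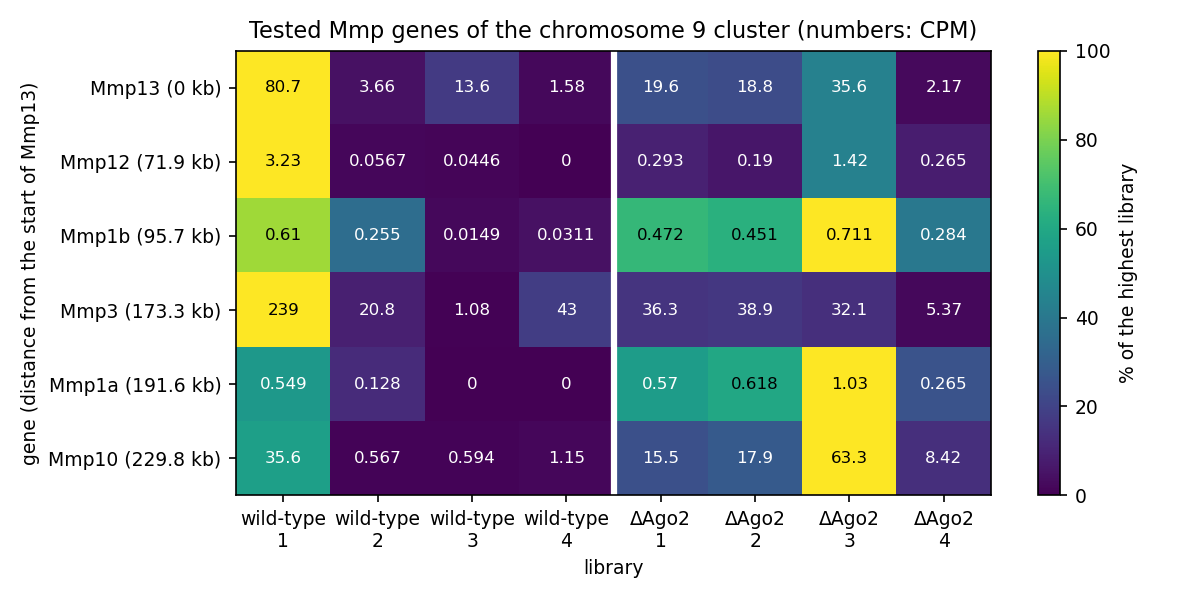
CPM of the 6 tested Mmp genes of the chromosome 9 cluster (rows, with the distance of each start from that of Mmp13) in the 8 libraries (columns), colored by the percent of the gene's highest library. The first wild-type column is the brightest of its genotype in all rows, and the third ΔAgo2 column is the brightest of its genotype in all but Mmp3.

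Of the membrane-type enzymes, Mmp14 was abundant in all libraries and Mmp15 was near the limit of detection. The SD of log2(CPM + 0.1) of Mmp14 was 0.54 in wild-type cells, against a median of 0.76 over tested genes. In ΔAgo2 cells its SD was 0.30, against a median of 0.23. Mmp14, which activates proMmp2 and cuts collagen at the cell surface (ENSMUSG00000000957.11, chromosome 14, 54431612 to 54445364), was at 442, 192, 398 and 295 CPM in wild-type replicates 1 to 4 and 301.5, 337, 455 and 452 CPM in ΔAgo2 replicates 1 to 4. The groups overlapped over most of their range. The means were 332 ± 112 and 386 ± 78.9 CPM (SD, n = 4), and the log2 fold change was 0.22 (standard error 0.32, 95% interval -0.48 to 0.92) with an adjusted p of 0.871 (edgeR quasi-likelihood F test, Benjamini-Hochberg). Mmp15, a further membrane-type enzyme (ENSMUSG00000031790.8, chromosome 8, 95352268 to 95375080), was counted 8, 10, 11 and 11 times in wild-type replicates 1 to 4 and 23, 19, 3 and 4 times in ΔAgo2 replicates 1 to 4. It did not pass the filter, and its ΔAgo2 libraries lay on both sides of the wild-type ones.

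Of the inhibitors, Timp3 had the largest difference. Timp3, the Timp that stays bound to the extracellular matrix (ENSMUSG00000020044.13, chromosome 10, 86300372 to 86349506), was at 7.22, 0.793, 10.5 and 3.85 CPM in wild-type replicates 1 to 4 and 0.847, 1.12, 0.417 and 1.12 CPM in ΔAgo2 replicates 1 to 4. The wild-type values rest on 355, 56, 704 and 124 counts and the ΔAgo2 values on 52, 47, 17 and 59. Wild-type replicates 1, 3 and 4 lay above every ΔAgo2 library, and replicate 2 lay among them. The means were 5.58 ± 4.18 and 0.874 ± 0.330 CPM (SD, n = 4). The log2 fold change was -2.67 (standard error 0.71, 95% interval -4.24 to -1.11), and it did not pass the test over all genes (unadjusted p = 0.00337, adjusted p = 0.277, edgeR quasi-likelihood F test, Benjamini-Hochberg). With DESeq2 the adjusted p was 0.00388 at a log2 fold change of -2.67, and without wild-type replicate 2, where 0.541% of genes were called, the edgeR adjusted p was 0.0445 at -3.05. Over all alternatives the adjusted p reached 0.727, in the fit with the replicate block. Of the genes around it, Syn3 overlaps Timp3 on the opposite strand and had at most 6 counts. The 3 genes whose centred log2 CPM came closest to that of Timp3 were Mcam, a surface adhesion molecule, Pdk4, a kinase that inhibits pyruvate dehydrogenase, and Slc45a3, with root mean square differences of 0.56, 0.58 and 0.60 against a median of 1.64 over all genes.

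Timp2 (ENSMUSG00000017466.9, chromosome 11, minus strand, 118301069 to 118355740) was at 490, 435, 590 and 1276 CPM in wild-type replicates 1 to 4 and 614, 662, 247 and 361 CPM in ΔAgo2 replicates 1 to 4. ΔAgo2 replicates 3 and 4 were the lowest libraries, replicates 1 and 2 lay within the wild-type range, and wild-type replicate 4 was the highest. The log2 fold change was -0.57 (standard error 0.44, 95% interval -1.53 to 0.40) with an adjusted p of 0.767 (edgeR quasi-likelihood F test, Benjamini-Hochberg), and it was -0.093 without wild-type replicate 4. Timp1, a soluble inhibitor that many cells induce under cytokines (ENSMUSG00000001131.11, chromosome X, 20870166 to 20874735), was at 27.1, 24.3, 24.4 and 69.1 CPM in wild-type replicates 1 to 4 and 30.3, 35.5, 28.9 and 20.9 CPM in ΔAgo2 replicates 1 to 4. Apart from wild-type replicate 4, both genotypes lay in a narrow band. The Timp1 log2 fold change stood at -0.32 with a standard error of 0.39 (adjusted p = 0.842, edgeR quasi-likelihood F test, Benjamini-Hochberg) and 0.20 without that library. The transcripts of Timp1 and Timp2 have a GC content of 52.8% and 53.7%, above the median of 49.6% over tested genes. With a correction for GC content their log2 fold changes were -0.085 and -0.30. Those of Mmp9 and Mmp14, with a GC content of 55.2% and 54.3%, were 2.00 and 0.345, farther from 0 than in the main fit. In the same fit Mmp3 was at -1.58, Mmp10 at 1.42, Mmp13 at -0.408 and Timp3 at -2.81. Whether GC content caused these differences was not tested. Timp1 lies within Syn1 on the opposite strand, which had 471 to 2077 counts. The strand setting of the counting is not given in the sources used here, so reads of these 2 genes may have been shared or dropped.

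**Figure D4:**
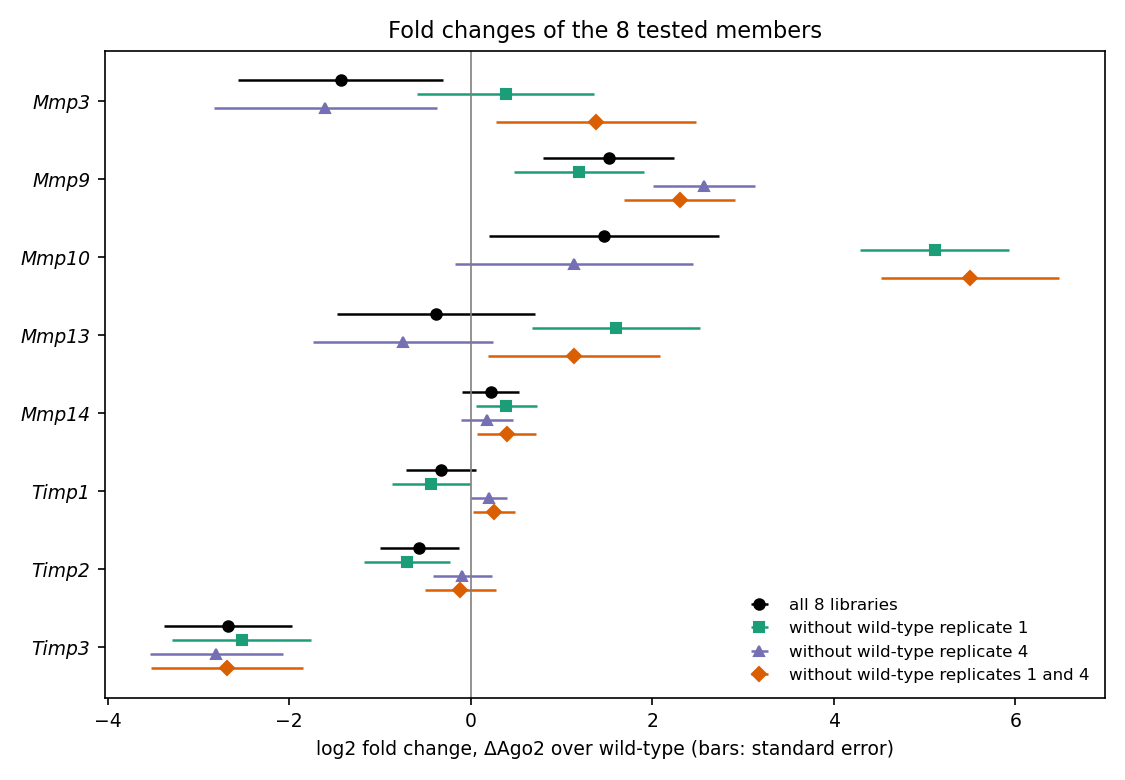
Log2 fold change (ΔAgo2 over wild-type, edgeR) of the 8 tested members with standard errors, for all 8 libraries and with wild-type replicates 1, 4 or both left out. Mmp3 and Mmp13 change sign without wild-type replicate 1, Mmp10 moves from 1.47 to 5.11, Timp1 changes sign without replicate 4, and Timp3 stays between -2.80 and -2.52 in these 4 fits.

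Most Mmps need other proteases to become active, and plasmin, made from plasminogen by urokinase (Plau), is the best known of them. In the list of proMmp activators and the plasminogen activator system, 9 of 14 genes were tested and 0 passed (edgeR quasi-likelihood F test, Benjamini-Hochberg). At an unadjusted p under 0.05 there were 2, against 1045 of all 14228 genes tested, and the median log2 fold change was -0.033. Plau was at 371, 133, 171 and 170 CPM in wild-type replicates 1 to 4 and 560, 617, 803 and 897 CPM in ΔAgo2 replicates 1 to 4. All ΔAgo2 libraries lay above all wild-type libraries, a pattern that 6.07% of tested genes had in one direction or the other. The log2 fold change of Plau was 1.77 (standard error 0.37, 95% interval 0.95 to 2.59) with an adjusted p of 0.1097 (edgeR quasi-likelihood F test, Benjamini-Hochberg). It was the one gene of the list that passed with DESeq2 (adjusted p = 0.000832). Plau passed in 4 of 21 alternatives, among them the fit without wild-type replicates 1 and 4, which was chosen after the values were seen. It did not pass in leave-one-out fits, which reached an adjusted p of 0.30 (edgeR). Pcsk6, a proprotein convertase, had a log2 fold change of -1.36 (adjusted p = 0.637, edgeR quasi-likelihood F test, Benjamini-Hochberg), the convertase Furin -0.63, and the lysosomal protease Ctsl 0.60.

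In the list of other protease inhibitors, 7 of 10 genes were tested and 1, Serpine2, passed, lower in ΔAgo2 cells, with a median log2 fold change of -0.26. Serpine2 encodes protease nexin-1, an inhibitor of thrombin, urokinase and plasmin. It was at 31.2, 7.25, 17.0 and 12.8 CPM in wild-type replicates 1 to 4 and 2.77, 3.02, 2.62 and 1.68 CPM in ΔAgo2 replicates 1 to 4. No values of the genotypes overlapped, as for 6.07% of tested genes. The log2 fold change was -2.76 (standard error 0.47, 95% interval -3.80 to -1.72) with an adjusted p of 0.0476 (edgeR quasi-likelihood F test, Benjamini-Hochberg). The call was lost in 12 of 21 alternatives, with an adjusted p of up to 0.191, although the log2 fold change stayed below 0 in all 21. Spint2, a Kunitz-type inhibitor of serine proteases at the cell surface, did not pass the filter and was counted 11, 4, 17 and 16 times in wild-type replicates 1 to 4 and 0 times in each ΔAgo2 library. It was called by DESeq2 and by edgeR without the filter, and it is named here because of those calls. Reck, a membrane-anchored inhibitor of several Mmps, had a log2 fold change of 0.50 (adjusted p = 0.784 from edgeR), Serpinb6a 0.57, and the cathepsin inhibitor Cst3 -0.83.

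Of 17 other Mmp and Timp genes, 7 were tested and 0 passed, with adjusted p-values of 0.732 and above (edgeR quasi-likelihood F test, Benjamini-Hochberg) and 0 at an unadjusted p under 0.05, and 4 had no counts in any library. The median log2 fold change was -0.092. The most extreme were Mmp1a at 1.85, Mmp1b at 1.05, Mmp12 at -0.63 and Mmp23 at -0.32. Among 9 partners, anchors and clearance receptors, 7 were tested and 0 passed (edgeR quasi-likelihood F test, Benjamini-Hochberg), with a median of -0.16. At an unadjusted p under 0.05 there were 2, against 1045 of all 14228 genes tested. These 2 were Itgav, the integrin αv subunit, at 0.88, and Cav1, a component of caveolae, at 0.78. At the lower end were Sdc1, a heparan sulfate proteoglycan, at -0.67, and Bsg (basigin, an inducer of Mmps) at -0.61. All 17 transcription factors known at Mmp promoters were tested and 0 passed (edgeR quasi-likelihood F test, Benjamini-Hochberg), with a median of 0.12. An unadjusted p under 0.05 was found for 1, against 1045 of all 14228 genes tested. Fosb, an AP-1 subunit, was at 20.5, 25.6, 44.5 and 5.31 CPM in wild-type replicates 1 to 4 and 57.9, 59.2, 50.7 and 56.9 CPM in ΔAgo2 replicates 1 to 4. The genotypes did not overlap for Fosb, as for 6.07% of tested genes. Its log2 fold change was 1.23 (adjusted p = 0.618, edgeR quasi-likelihood F test, Benjamini-Hochberg). Fos followed at 0.88, and Jund and Rela were lowest at -0.56 and -0.43. Wild-type replicate 4 was the lowest library for Fosb and Fos and the highest for Jund and Rela. With DESeq2, none of the genes in these 3 lists passed, and with limma-voom and sample weights, which called 1.81% of genes, 1 (Fosb) did.

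**Figure D5:**
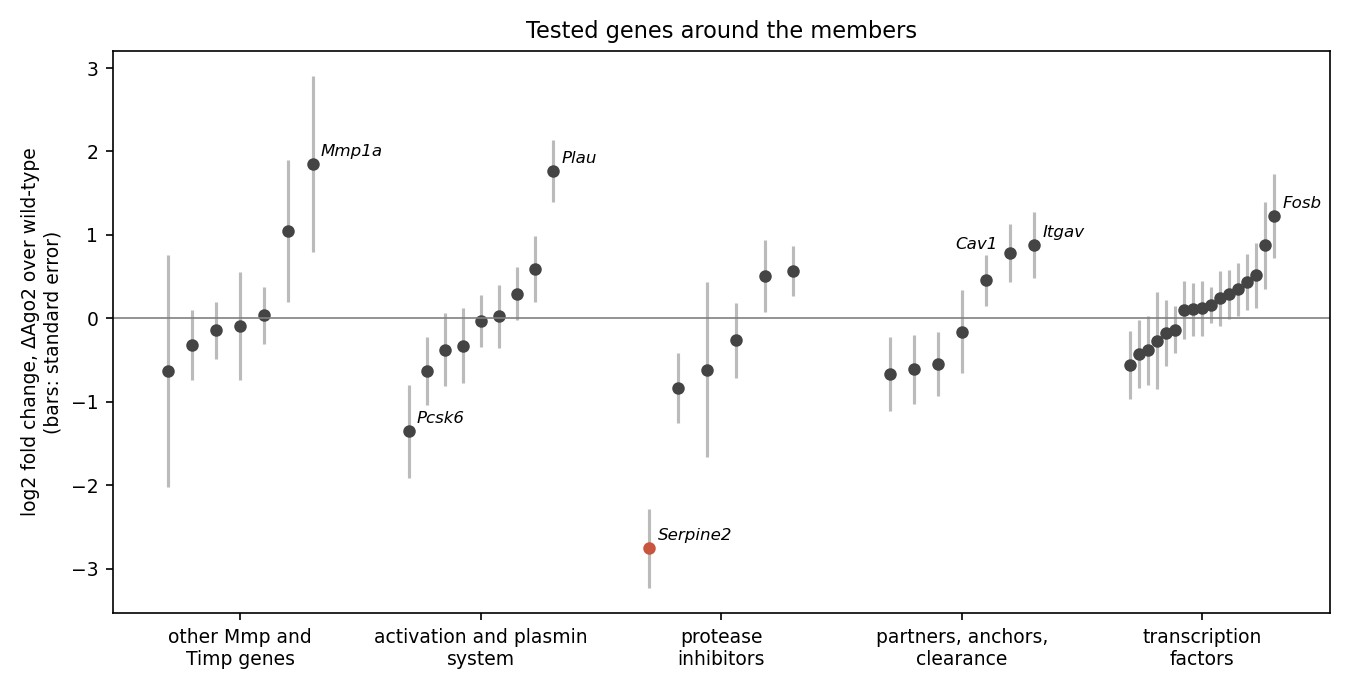
Log2 fold change (ΔAgo2 over wild-type) with standard error of tested genes in the 5 lists around the members, ordered within each list. Serpine2 (red) is the one gene shown with an adjusted p under 0.05, at -2.76, and Plau stands at 1.77.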

How the data were processed

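Total RNA of cultured LLC cells was sequenced as paired-end stranded mRNA libraries, 4 wild-type and 4 ΔAgo2. The authors aligned reads to ribosomal RNA and then mm10 and counted them with featureCounts, and the submitters' notes name STAR. The deposited counts are whole reads per gene without normalization, and the TPM deposited by the authors are scaled to gene length and library total. The annotation release and strand setting are not given in the sources used here. Symbols, positions, GC content and UTRs came from GENCODE M21 (GRCm38), with 93 of 55487 identifiers unmatched. Genes were filtered with filterByExpr, scaled with TMM and tested with edgeR 4.0.16 (R 4.3.3) quasi-likelihood F tests, genotype as the only factor. DESeq2 1.42.0 and limma 3.58.1 gave alternatives. The scripts were tested on simulated counts. The members and all gene lists were chosen with earlier results of these data known. All members are named. Related genes are named if past an adjusted p of 0.05, otherwise as the 2 highest and 2 lowest log2 fold changes of a list, plus Reck, Plau, Bsg, Furin and 1 gene whose result is not reported here. That wild-type replicates 1 and 4 were left out together was chosen after the values were seen. The detection floor was set at 3 counts per library.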

Additional observations from a re-analysis of the deposited data

Results flagged for a closer look

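Of 29 groups of 4 libraries examined, 4 had a library far from the others by Dixon's ratio, tested at its 95% critical value. This is the gap to the nearest library over the whole range, on log2 CPM of single genes or on log2 of the Mmp and Timp TPM sums and their ratio. Chance alone flags about 1 in 20 of independent groups, but these groups reuse the same libraries and are not independent. In ΔAgo2 cells, Mmp3 was low in replicate 4, at 5.37 CPM against 32.1 to 38.9 CPM (ratio 0.903). Among the wild-type libraries, Mmp10 was high in replicate 1, at 35.6 CPM against 0.567 to 1.15 CPM (ratio 0.831). Wild-type replicate 4 was high for Timp1, at 69.1 CPM against 24.3 to 27.1 CPM (ratio 0.896). It was also high for Mmp15, at 0.342 CPM against 0.142 to 0.163 CPM (ratio 0.841). That value rests on 11 counts, the same number as in replicate 3. The CPM of replicates 3 and 4 differ because of their totals (68530912 and 40740643 counts) and TMM factors (0.983 and 0.791).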

How the results depend on the processing

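Of 14228 genes tested, 42 were called. The number was 399 of 17926 with DESeq2, 257 of 14228 with limma-voom and sample weights, 143 of 27776 with no filter, 71 with the GC correction and 15 on log2(TPM + 1). Leaving out 1 library gave 1 to 113, with 12 without wild-type replicate 1, 78 without wild-type replicate 2, 113 without wild-type replicate 4, 1 without ΔAgo2 replicate 1, and 7 without each other ΔAgo2 library. Same-numbered libraries deviated together in replicate 3 (r = 0.384) but not in replicates 1, 2 and 4 (r = -0.138, -0.0491 and 0.0278). The numbers were not taken to pair the libraries in the main fit. A fit with the replicate block called 18 genes (66 with the block and GC correction). Members called numbered 1 (Timp3) with DESeq2 and 0 to 1 in leave-one-out fits. Related genes called numbered 3 (Plau, Serpine2 and Spint2) with DESeq2 and with no filter, 2 with sample weights, 0 with limma-voom, library size alone, log2(TPM + 1) and the replicate block, and 0 to 1 in leave-one-out fits. Members with a log2 fold change above 0 numbered 3 in the main fit, 5 with limma-voom, 6 on log2(TPM + 1) and log2(TPM + 0.1), 6 without wild-type replicates 1 and 4, and 3 to 5 in leave-one-out fits, with 5 without wild-type replicate 1.

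Mmp3, at -1.43, turned to 0.095 with limma-voom, 0.12 and 0.21 on log2(TPM + 1) and log2(TPM + 0.1), and 1.38 without wild-type replicates 1 and 4, with leave-one-out values from -1.84 to 0.39. Mmp13, at -0.39, turned to 0.47 with limma-voom, 0.60 and 0.73 on log2(TPM + 1) and log2(TPM + 0.1), 0.64 with the replicate block (0.20 with the block and GC correction) and 1.14 without wild-type replicates 1 and 4, with leave-one-out values from -0.88 to 1.60. Timp1, at -0.32, turned to 0.21 with sample weights, 0.016 on both TPM scales and 0.26 without wild-type replicates 1 and 4, with leave-one-out values from -0.49 to 0.20. With sample weights Mmp14 was at -0.099 and Timp2 at 0.096. Mmp9, Mmp10 and Timp3 kept their direction in all 21 alternatives, from 0.69 to 2.57, 0.56 to 5.50 and -3.05 to -0.996. The median log2 fold change of all genes was -0.11 in the main fit, 0.15 on log2(TPM + 1) and 0.22 on log2(TPM + 0.1). The cause of these differences was not tested. The counts of Mmp2 and Mmp15 were too low for the filtered test.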
